A study of Mus musculus with 24 samples.

Results

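H3K4me3, the histone mark found at active and poised promoters, was compared between Sertoli cells, the supporting cells of the fetal testis, and pregranulosa cells, their counterparts in the fetal ovary. Each population was represented by 1 list of H3K4me3 peaks, and peaks of a list that overlapped were joined into regions on chromosomes 1 to 19. A region was called shared when it overlapped a region of the other list by at least 1 bp, and Sertoli-only or pregranulosa-only when it did not. Regions were counted separately where they reached within 2 kb of the transcription start site (TSS) of a gene, taken as 1 annotated start per gene, and elsewhere. Joined over both lists there were 52169 such regions, from 38056 Sertoli and 43367 pregranulosa regions, while the 8 lists of the series held 207961 regions on all chromosomes.

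The study asked how repressive and active histone marks change as XY and XX gonads choose the testis or ovary fate, and profiled H3, H3K4me3 and H3K27me3 in 24 samples. Sertoli cells were sorted by fluorescence from E13.5 XY gonads of Sox9-CFP mice. Pregranulosa cells, which the labels call granulosa cells, were sorted from E13.5 XX gonads of TESM-CFP mice, a reporter driven by a mutated copy of TESCO, an enhancer of Sox9. Both reporters were on a C57BL/6 x CD1 background, no gene was deleted in either population, and 4 of the samples, 2 replicates per population, gave the H3K4me3 lists. Each replicate pooled cells of several embryos, and each list was made from both replicates. The series description and the headers of the progenitor lists give joined replicates, whereas the study's methods describe peak calling in each replicate. E10.5 progenitor cells of both sexes, sorted by SF1-eGFP, served here as the earlier stage. Sf1-driven reporters mark somatic cells broadly at that stage, so the progenitors are a wider population than the supporting cells alone.

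With 1 pooled list per population there was no spread between replicates, and no difference between the populations could be tested. Sertoli-only and pregranulosa-only therefore name the list in which a region was called, and intervals are exact (Clopper-Pearson) 95% binomial intervals that cover counting error only. The Sertoli list rested on 31104760 tags, of which 63.03% lay in peaks, whereas the depth of the pregranulosa list is unknown. The pregranulosa list covered 87.2 Mb and the Sertoli list 73.2 Mb, so a count that is higher in pregranulosa cells by the same proportion at all genes cannot be told apart from a difference in depth. The lists carry no peak height, so the values below are the presence of a region and the bases it covers.

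The sex of both lists followed the labels. The windows of TSS ± 2 kb of 4 Y-linked genes, Ddx3y, Eif2s3y, Kdm5d and Uty, held 2411 to 2901 bp of H3K4me3 in Sertoli cells and 0 bp in pregranulosa cells, and Xist, the RNA of the inactive X chromosome, held 0 and 3254 bp. Of 10 blood cell markers, 8 were marked in neither population, and 1 of them, Csf1r, was marked in Sertoli cells over 840 bp. Of 12 endothelial markers, 6 were marked in both cell types, 5 in neither, and Cdh5 was marked in pregranulosa cells over 1001 bp, the commonest width of a region. Among 12 germ cell markers, 4 were marked in both cell types and 4 in neither. Pou5f1 (1001 bp), Sycp3 (1001 bp) and Nanos2 (2 bp at the window's edge) were marked in the Sertoli list alone. Stra8 (1001 bp), which prepares germ cells for meiosis, was marked in the pregranulosa list alone. Of all protein-coding promoters, 64.5% were marked in both, 31.9% in neither, 1.06% in Sertoli cells alone and 2.57% in pregranulosa cells alone. The part of other cell types in these lists was not tested.

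H3K4me3 is deposited by the Trithorax-group and related methyltransferases around the start sites of transcribed genes. CpG-rich promoters usually carry it in most tissues whether or not the gene is highly expressed, whereas CpG-poor promoters and regions away from start sites tend to carry it only in the cells that use them. In the gonad, SRY and SOX9 direct Sertoli cell differentiation, while WNT4, RSPO1 and FOXL2 direct pregranulosa cells, and both lineages arise from common progenitors.

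The sequences that the comparison turns on are given first, from the mm9 (NCBIM37) genome and 5′ to 3′. Capitals mark exact matches to 6 short motifs on either strand, the SOX motif ACAATG, the NR5A1 motif CAAGGTCA, the GATA motif AGATAA, the FOX motif GTAAACA, the TCF/LEF motif ATCAAAG and the AP-1 motif TGAGTCA, none of which contains another. A match describes the letters and is not a binding site. Each promoter runs from 250 bases before to 50 bases after the TSS. Of the 21418 protein-coding promoters of this length, 10.4% held the SOX letters, 1.33% NR5A1, 10.2% GATA, 3.08% FOX, 3.49% TCF/LEF and 4.4% AP-1. The first set holds the 3 Sertoli-specific promoters with most H3K4me3 bases among those marked in Sertoli cells and not in pregranulosa cells. The Cp promoter held 1 SOX match, and the other two had no match in this window.
Cst9 promoter, chr2:148660633-148660932, plus strand: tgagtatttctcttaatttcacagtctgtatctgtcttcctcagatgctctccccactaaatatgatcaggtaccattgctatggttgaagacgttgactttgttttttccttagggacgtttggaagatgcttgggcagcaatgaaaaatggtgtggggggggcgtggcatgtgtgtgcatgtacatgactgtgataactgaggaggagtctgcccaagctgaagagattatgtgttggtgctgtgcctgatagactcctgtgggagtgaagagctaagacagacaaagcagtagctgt
Hsd17b3 promoter, chr13:64190460-64190759, minus strand: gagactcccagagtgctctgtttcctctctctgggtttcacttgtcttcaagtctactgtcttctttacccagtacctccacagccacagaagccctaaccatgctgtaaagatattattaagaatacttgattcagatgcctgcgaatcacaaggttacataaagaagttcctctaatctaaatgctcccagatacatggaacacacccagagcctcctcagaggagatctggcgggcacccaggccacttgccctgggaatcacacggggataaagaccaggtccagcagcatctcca
Cp promoter, chr3:19856804-19857103, plus strand: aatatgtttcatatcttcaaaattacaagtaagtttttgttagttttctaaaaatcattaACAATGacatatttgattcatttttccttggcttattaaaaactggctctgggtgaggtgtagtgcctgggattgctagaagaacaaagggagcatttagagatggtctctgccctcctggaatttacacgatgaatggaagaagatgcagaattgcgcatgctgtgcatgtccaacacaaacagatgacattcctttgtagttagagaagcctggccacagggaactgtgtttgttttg

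The second set holds the 2 pregranulosa-specific promoters with most H3K4me3 bases among those marked in pregranulosa cells and not in Sertoli cells. Neither held a match in this window.
Wfdc6a promoter, chr2:164410898-164411197, minus strand: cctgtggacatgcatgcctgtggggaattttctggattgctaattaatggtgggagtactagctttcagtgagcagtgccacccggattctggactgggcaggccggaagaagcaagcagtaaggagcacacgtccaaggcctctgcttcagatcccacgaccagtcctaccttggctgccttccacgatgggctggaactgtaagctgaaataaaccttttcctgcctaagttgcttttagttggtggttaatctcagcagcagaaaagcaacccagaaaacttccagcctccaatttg
Cyp4f15 promoter, chr17:32822322-32822621, plus strand: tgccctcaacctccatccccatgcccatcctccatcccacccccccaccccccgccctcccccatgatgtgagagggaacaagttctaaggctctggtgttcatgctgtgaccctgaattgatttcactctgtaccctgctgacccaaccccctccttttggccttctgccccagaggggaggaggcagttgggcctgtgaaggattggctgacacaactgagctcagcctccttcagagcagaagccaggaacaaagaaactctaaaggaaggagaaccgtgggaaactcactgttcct

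The third set shows the central 300 bases of Sertoli-only regions elsewhere. It holds the widest of these regions, near Ptplb and Foxn1, and a pair added after their values were seen, the region upstream of Sox9 and the widest region nearest to a Sertoli-specific gene with at least 2 SOX matches, near Sel1l3.
Ptplb region, chr16:34995733-34996032, plus strand: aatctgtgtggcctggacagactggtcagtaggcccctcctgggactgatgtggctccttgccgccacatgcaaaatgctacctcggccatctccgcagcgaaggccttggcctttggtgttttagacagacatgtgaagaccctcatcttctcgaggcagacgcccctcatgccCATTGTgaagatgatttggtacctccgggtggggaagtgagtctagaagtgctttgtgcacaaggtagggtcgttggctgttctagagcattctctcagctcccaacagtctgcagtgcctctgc
Foxn1 region, chr11:78216060-78216359, plus strand: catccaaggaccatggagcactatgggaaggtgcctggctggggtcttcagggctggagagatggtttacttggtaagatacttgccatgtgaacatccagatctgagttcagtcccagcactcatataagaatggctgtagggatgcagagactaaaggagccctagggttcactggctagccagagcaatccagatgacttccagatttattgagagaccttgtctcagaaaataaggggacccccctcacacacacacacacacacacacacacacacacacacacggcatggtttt
Sox9 region, chr11:112571383-112571682, plus strand: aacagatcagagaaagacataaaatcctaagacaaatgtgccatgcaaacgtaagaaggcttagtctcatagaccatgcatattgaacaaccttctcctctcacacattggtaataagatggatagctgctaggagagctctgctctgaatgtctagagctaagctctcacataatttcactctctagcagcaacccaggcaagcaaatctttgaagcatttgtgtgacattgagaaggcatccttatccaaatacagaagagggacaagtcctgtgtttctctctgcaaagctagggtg
Sel1l3 region, chr5:53617180-53617479, plus strand: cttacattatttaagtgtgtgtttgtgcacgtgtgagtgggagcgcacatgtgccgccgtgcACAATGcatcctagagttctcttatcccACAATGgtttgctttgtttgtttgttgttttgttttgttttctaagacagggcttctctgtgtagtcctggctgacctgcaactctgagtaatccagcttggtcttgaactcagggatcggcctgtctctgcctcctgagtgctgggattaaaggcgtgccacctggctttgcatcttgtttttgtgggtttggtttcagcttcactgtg

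The fourth set shows the same for pregranulosa-only regions. It holds the widest of these, near Ces1h and Cgnl1, and 1 added after its values were seen, the widest region nearest to a pregranulosa-specific gene with at least 2 TCF/LEF matches, near Pld5.
Ces1h region, chr8:95890107-95890406, plus strand: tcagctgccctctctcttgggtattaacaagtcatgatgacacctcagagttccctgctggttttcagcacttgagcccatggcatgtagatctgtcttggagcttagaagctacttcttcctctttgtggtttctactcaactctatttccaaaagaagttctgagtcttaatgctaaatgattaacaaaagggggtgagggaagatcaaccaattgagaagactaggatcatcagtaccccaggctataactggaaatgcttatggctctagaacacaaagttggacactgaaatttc
Cgnl1 region, chr9:71741946-71742245, plus strand: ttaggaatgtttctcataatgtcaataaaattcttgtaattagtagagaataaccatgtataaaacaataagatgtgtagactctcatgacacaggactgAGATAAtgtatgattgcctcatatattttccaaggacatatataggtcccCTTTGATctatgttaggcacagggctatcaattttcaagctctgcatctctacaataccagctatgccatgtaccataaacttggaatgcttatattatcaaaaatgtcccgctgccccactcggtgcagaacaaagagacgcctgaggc
Pld5 region, chr1:178368329-178368628, plus strand: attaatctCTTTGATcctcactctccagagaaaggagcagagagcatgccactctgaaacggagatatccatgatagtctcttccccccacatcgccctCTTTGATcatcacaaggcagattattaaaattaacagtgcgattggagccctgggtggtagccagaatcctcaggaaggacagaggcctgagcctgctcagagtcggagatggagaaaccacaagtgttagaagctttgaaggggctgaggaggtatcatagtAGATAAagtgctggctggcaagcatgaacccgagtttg

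Promoters were largely marked in common, and the cell types parted away from start sites. Of 15320 regions within 2 kb of a TSS, 13607 (88.8%) were shared, 619 (4.04%, 95% interval 3.73 to 4.36) were Sertoli-only and 1094 (7.14%, 6.74 to 7.56) were pregranulosa-only. Of 36849 regions elsewhere, 14580 (39.6%) were shared, 8536 (23.2%, 22.7 to 23.6) were Sertoli-only and 13733 (37.3%, 36.8 to 37.8) were pregranulosa-only. As a share of its own list, 4.31% of the Sertoli regions at TSS and 36% of those elsewhere had no counterpart, and for the pregranulosa list these shares were 7.43% and 48%. Other annotated transcript starts lay within 2 kb of 6.29% of Sertoli-only, 11.8% of shared and 4.7% of pregranulosa-only regions elsewhere. With both lists reduced to their widest regions, as many as in the Sertoli list, the classes were nearly even, at 796 Sertoli-only and 845 pregranulosa-only regions at TSS and 9956 and 10324 elsewhere. No chromosome stood apart, with a Sertoli-only share of 15% to 20.1% and a pregranulosa-only share of 25.4% to 31.5% across the 19 chromosomes.

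**Figure D1:**
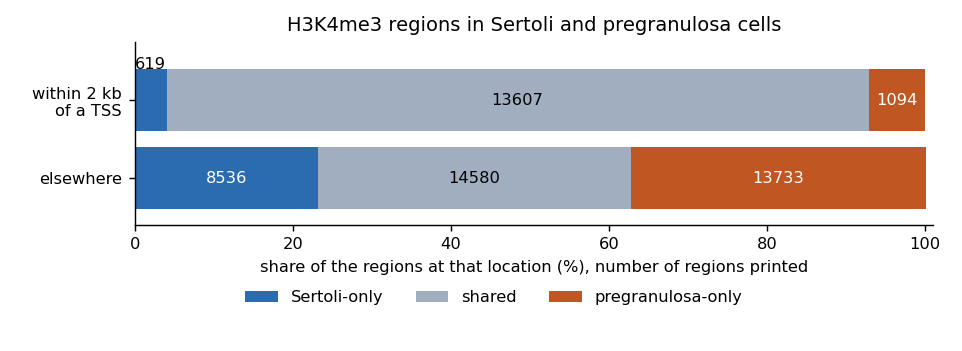
H3K4me3 regions by class, as a share in percent of the regions within 2 kb of a TSS (upper bar) and elsewhere (lower bar), with the number of regions printed on each part. Shared regions make up 88.8% of the upper bar and 39.6% of the lower bar.

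Regions in 1 list were narrow. The median width of Sertoli-only and of pregranulosa-only regions was 1001 bp both at TSS and elsewhere. Shared regions, joined over both lists and so wider by construction, had medians of 3024 bp at TSS and 1713 bp elsewhere. Taken within 1 list, shared regions had medians of 2498 bp (Sertoli) and 2822 bp (pregranulosa) at TSS. Elsewhere these medians were 1275 and 1509 bp. Among Sertoli-only regions, 66.9% at TSS and 66.2% elsewhere were exactly 1001 bp wide, and among pregranulosa-only regions these shares were 55.5% and 62.5%. Part of them lay beside a region of the other list: 43.5% of Sertoli-only and 33.5% of pregranulosa-only regions at TSS had one within 5 kb, as did 29.5% and 23.2% of those elsewhere. Overlap of bases over both lists (Jaccard index) was 0.538 at E13.5 and 0.462 between the XY and XX progenitors, lists of 10162534 and 49254553 tags, so the progenitor value is set beside a wide gap in depth.

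Of 21418 protein-coding promoters, 13804 (64.5%) were marked in both cell types, 228 (1.06%) in Sertoli cells alone, 551 (2.57%) in pregranulosa cells alone and 6835 (31.9%) in neither. The 1327 Sertoli-specific and 1072 pregranulosa-specific genes with a window, lists the study drew from expression arrays of other samples, were marked in both at 93.1% and 93.3% of windows. Of the Sertoli-specific genes, 1236 were marked in both, 20 (1.51%, 0.923 to 2.32) in Sertoli cells alone and 9 (0.678%, 0.311 to 1.28) in pregranulosa cells alone. Of the pregranulosa-specific genes, 1000 were marked in both, 26 (2.43%, 1.59 to 3.53) in pregranulosa cells alone and 3 (0.28%, 0.0577 to 0.816) in Sertoli cells alone. Few genes of either list were thus marked in 1 cell type, and the shares of all genes, 1.06% and 2.57%, lay within the intervals of the matching lists. With the widest 75% of each list, 41 pregranulosa-specific genes and 582 of all genes were marked in pregranulosa cells alone. Of the genes marked in 1 cell type, 69% (49.2 to 84.7) of the Sertoli-specific, 10.3% (2.19 to 27.4) of the pregranulosa-specific and 28.4% of the other genes were marked in Sertoli cells.

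The genes that did part included enzymes and secreted proteins of the Sertoli cell. Of 18 Sertoli markers, 12 were marked in both cell types and 5 in Sertoli cells alone. The background was 64.5% and 1.06% of all promoters, and the 1327 Sertoli-specific genes stood at 93.1% and 1.51%. The markers were written by hand with earlier results of these data known, so their share is a description and not a test. The same holds for the other short gene lists. Cst9, a cystatin made by fetal Sertoli cells, had 3685 bp of H3K4me3 in its window in Sertoli cells and 0 bp in pregranulosa cells. Hsd17b3, the enzyme that makes testosterone from androstenedione, had 2700 and 0 bp. Ptgds, the prostaglandin D synthase that takes part in Sertoli cell differentiation, had 2412 and 0 bp. Col9a3, a collagen chain, had 2106 and 0 bp, and Hsd17b1, which converts estrone to estradiol, had 1947 and 0 bp. At Col9a3, however, 1 of 6 annotated transcript starts lay in a window marked in pregranulosa cells. At E10.5 Ptgds and Hsd17b3 were unmarked in both sexes, Cst9 had 1001 bp in XY progenitors alone, Hsd17b1 had 1137 bp in XX progenitors alone, and Col9a3 had 1001 bp in XY and 1757 bp in XX progenitors. The remaining marker, Cyp26b1, which degrades retinoic acid, had 0 bp at its annotated start in both cell types.

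Sertoli-specific genes outside the marker list were also among those with most bases in Sertoli cells alone. Cp, which encodes the copper carrier ceruloplasmin, had 2605 bp, Tspan32, a tetraspanin, 1894 bp, 8030411F24Rik 1773 bp and 4930486L24Rik 1668 bp. H2-Aa, a class II histocompatibility chain, had 1290 bp, Clec12b, a C-type lectin receptor, 1265 bp and Snd1, a transcriptional coactivator, 1259 bp. All 7 had 0 bp in pregranulosa cells. For Tspan32 and Snd1, however, 8 of 10 and 4 of 10 annotated transcript starts lay in a window marked in pregranulosa cells, so their call rests on the first start of the gene. The opposite pattern, 0 bp in Sertoli cells, was found at 9 Sertoli-specific genes, of which those with most bases were Clps (1893 bp in pregranulosa cells), which encodes pancreatic colipase, Lman1 (1262 bp), a cargo receptor of the secretory pathway, Cyp17a1 (1253 bp), a hydroxylase of androgen synthesis, and Frmd4a, Islr and Nhsl1 (1001 bp each). Of their annotated starts, 6 of 11 at Frmd4a, 5 of 6 at Nhsl1 and 2 of 6 at Lman1 were marked in Sertoli cells.

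Pregranulosa-specific genes marked in pregranulosa cells alone included no core ovary-determining gene. Wfdc6a, of the whey acidic protein family, had 2803 bp in pregranulosa cells, Cyp4f15, a cytochrome P450, 2665 bp, and the lens crystallin genes Crygb and Crygc 2446 and 2378 bp. Lhcgr, the receptor of luteinizing hormone, had 2061 bp, Mgp, an inhibitor of calcification, 2041 bp, Rarres2, the chemokine-like chemerin, 1996 bp and Lgals9, a galectin, 1918 bp. Spink4, a protease inhibitor, had 1865 bp, Opn1sw, a cone opsin, 1858 bp and Lbp, which binds bacterial lipopolysaccharide, 1700 bp. All of these had 0 bp in Sertoli cells. Lhcgr, Mgp, Opn1sw and Lbp had been marked in both progenitor populations, with 1642 bp at Lbp and 1793 bp at Lhcgr in XY progenitors, so these promoters were listed in XY cells at E10.5 and not in Sertoli cells at E13.5. The opposite pattern, 0 bp in pregranulosa cells, was seen at Cdkn1a (1391 bp in Sertoli cells), a cell cycle inhibitor, Foxp1 (1001 bp), a forkhead factor, and Sycp3 (1001 bp), of the meiotic synaptonemal complex. Of their annotated starts, 2 of 3 at Cdkn1a and 6 of 10 at Foxp1 were marked in pregranulosa cells.

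The genes that direct each fate were marked in both cell types, most of them over unequal lengths. Sox9 had 4001 bp, the whole window, in each. Fgf9, the testis-promoting growth factor, had 2502 bp in Sertoli and 2313 bp in pregranulosa cells, and Dmrt1, which maintains Sertoli identity, 3032 and 3148 bp. The ovary-determining genes all had fewer bases in Sertoli cells: Wnt4, a Wnt ligand, 2374 against 3471 bp, Rspo1, which amplifies Wnt signaling, 2644 against 3869 bp, Foxl2, the forkhead factor of granulosa cells, 3236 against 4001 bp and Lef1, a nuclear effector of Wnt signaling, 2456 against 3285 bp. Of all promoters marked in both cell types, 65.1% had more bases in pregranulosa cells, with a median difference of -176 bp (Sertoli minus pregranulosa). Among the 7 genes, Wnt4 and Rspo1 alone differed by at least 1000 bp. All 7 promoters stood in both lists. In the same windows H3K27me3 covered 4001 bp at Sox9, Fgf9 and Dmrt1 in pregranulosa cells and 0 bp in Sertoli cells, and 4001 bp at Wnt4 and Rspo1 in Sertoli cells and 0 bp in pregranulosa cells. Foxl2 and Lef1 did not part in this way, with 4001 bp of H3K27me3 at Foxl2 in both cell types and 4001 bp in Sertoli and 3635 bp in pregranulosa cells at Lef1.

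**Figure D2:**
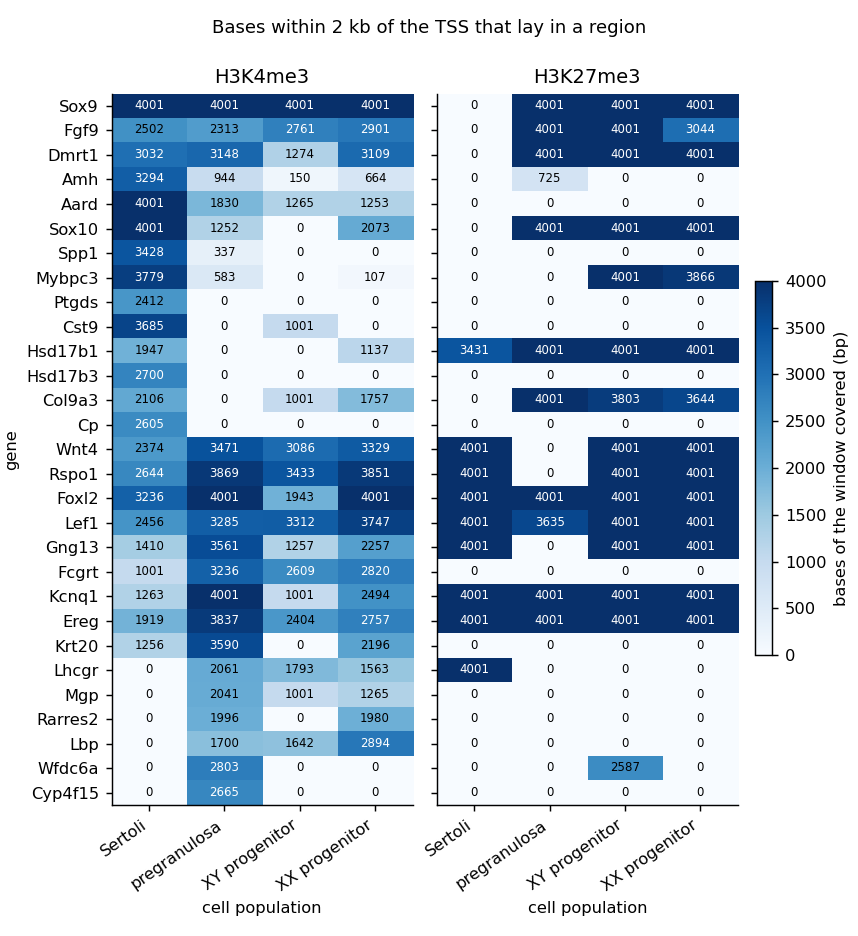
Bases of the window of TSS ± 2 kb that lay in an H3K4me3 region (left) or an H3K27me3 region (right) at named genes in Sertoli cells, pregranulosa cells and the E10.5 XY and XX progenitors. Genes from Sox9 to Cp are testis-associated and those from Wnt4 to Cyp4f15 ovary-associated. Cst9, Hsd17b3, Ptgds and Cp are at 0 bp of H3K4me3 in pregranulosa cells and Wfdc6a and Cyp4f15 at 0 bp in Sertoli cells, while Sox9 fills the window in all 4 populations.

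Among promoters marked in both cell types, the sex-specific genes differed in the extent of the mark. Over all 13804 promoters marked in both cell types, 4290 (31.1%) had more bases in Sertoli cells and 8990 (65.1%) in pregranulosa cells, with a median difference of -176 bp (Sertoli minus pregranulosa). Sertoli-specific genes stood at 52.3% (49.4 to 55.1) with more bases in Sertoli cells and a median of 18 bp, and pregranulosa-specific genes at 77.3% (74.6 to 79.9) with more in pregranulosa cells and a median of -332 bp. A difference of at least 1000 bp toward Sertoli cells was found at 142 promoters in all (1.03%) and at 67 of the 1236 Sertoli-specific genes (5.42%, 4.23 to 6.83), but at 0 of the 1000 pregranulosa-specific genes, which allows a share of up to 0.368%. A difference of this size toward pregranulosa cells was found at 701 promoters in all (5.08%), at 132 pregranulosa-specific genes (13.2%, 11.2 to 15.5) and at 17 Sertoli-specific genes (1.38%, 0.803 to 2.19).

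The progenitors did not show this split. At E10.5, 2605 of 13672 promoters marked in both progenitor populations (19.1%) had at least 1000 bp more in XX cells and 22 (0.161%) in XY cells. The XX share was 19.3% (17.1 to 21.6) at Sertoli-specific, 18.8% (16.4 to 21.3) at pregranulosa-specific and 19.1% (18.3 to 19.8) at other protein-coding genes. The median difference (XY minus XX) was -532, -481 and -533 bp in the same order. The whole set thus leaned toward the list with more tags at E10.5, by about as much in each gene list, whereas at E13.5 the gene lists leaned apart.

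**Figure D3:**
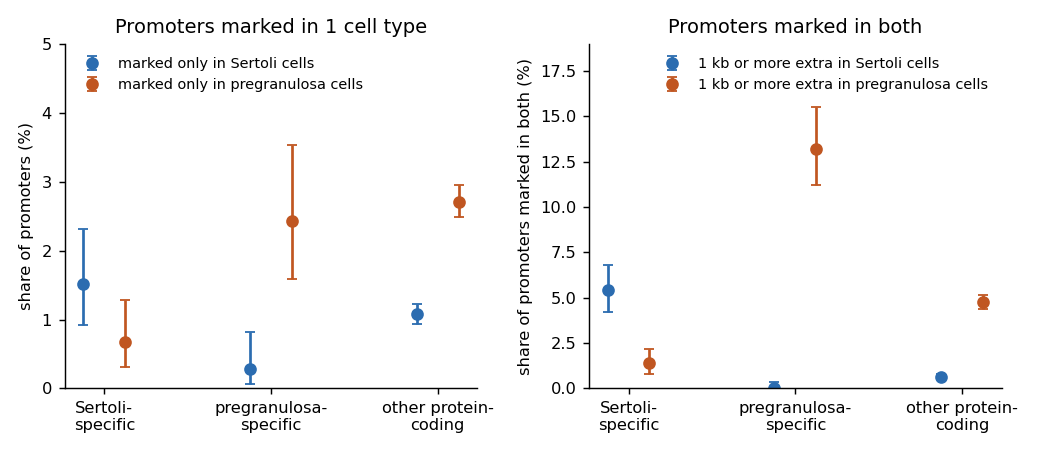
Left, share in percent of promoters marked by H3K4me3 in 1 cell type, and right, share of promoters marked in both that had at least 1 kb more H3K4me3 in Sertoli (blue) or pregranulosa cells (orange), for Sertoli-specific, pregranulosa-specific and other protein-coding genes. Points are shares and bars exact 95% binomial intervals. On the right, Sertoli-specific genes reach 5.42% toward Sertoli cells against 0.648% for other genes, and pregranulosa-specific genes 13.2% toward pregranulosa cells against 4.77%.

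Among Sertoli-specific genes marked in both, Mybpc3, a myosin-binding protein of heart muscle, had 3779 bp in Sertoli and 583 bp in pregranulosa cells. Spp1, the secreted protein osteopontin, had 3428 and 337 bp, Myo7a, an unconventional myosin, 4001 and 1202 bp, and Sox10, a SOX family factor, 4001 and 1252 bp. Gstm7, a glutathione transferase, had 4001 and 1514 bp, Aard 4001 and 1830 bp and Defb19, a defensin, 3639 and 1517 bp. Amh, the hormone that removes the Müllerian duct, had 3294 bp in Sertoli cells, 944 bp in pregranulosa cells, 150 bp in XY and 664 bp in XX progenitors. At these genes the mark was present in both cell types over unequal lengths.

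Toward pregranulosa cells large differences at pregranulosa-specific genes were at Kcnq1, a potassium channel, with 1263 bp in Sertoli and 4001 bp in pregranulosa cells, and Krt20, a keratin, with 1256 and 3590 bp. Fcgrt, the neonatal Fc receptor, had 1001 and 3236 bp, and Gng13, a G protein subunit, 1410 and 3561 bp. Parvb, a parvin, had 2079 and 4001 bp, Ereg, the growth factor epiregulin, 1919 and 3837 bp and 1700026D08Rik 1001 and 2905 bp. Of 16 pregranulosa markers, 15 were marked in both cell types, against 64.5% of all promoters, and Runx1 had 0 bp at its annotated start in both. Of those 15, 4 (26.7%, 7.79 to 55.1, against 5.08% of all promoters marked in both) had at least 1000 bp more in pregranulosa cells, namely Wnt4, Rspo1, Gng13 and Msx1, a homeobox factor with 2273 and 4001 bp, and 0 had as much more in Sertoli cells.

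Genes of the Wnt pathway, which acts in the ovary, had the mark in both cell types at 43 of 44 windows. All protein-coding promoters stood at 64.5%, and the Sertoli-specific and pregranulosa-specific genes at 93.1% and 93.3%. Of the 43 Wnt pathway windows, 26 had more bases in pregranulosa cells and 14 in Sertoli cells, shares of 60.5% and 32.6% that lie near the background of 65.1% and 31.1%. By at least 1000 bp, 6 (14%, 5.3 to 27.9) had more in pregranulosa cells and 0 in Sertoli cells, against 5.08% and 1.03% of all promoters marked in both. These 6 were Wnt4, Rspo1, the ligands Wnt2b (2109 and 4001 bp) and Wnt5a (2503 and 3518 bp), Rspo2 (1677 and 2677 bp) and the secreted antagonist Sfrp2 (2422 and 4001 bp). Among receptors and effectors, Fzd7 stood at 3112 and 3535 bp, Lgr5 at 2773 and 3193 bp, and Tcf7 at 3767 and 4001 bp. Ctnnb1, beta-catenin, had 0 bp at its annotated start in both cell types.

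Of 28 Fgf and Hedgehog genes, 25 were marked in both cell types, with 11 each having more bases in Sertoli and in pregranulosa cells, and Fgf1 was marked in Sertoli cells alone (1001 bp). Dhh, the ligand that Sertoli cells send to Leydig cells, had 2610 and 2721 bp, and its receptor Ptch1 2427 and 2446 bp. All 25 genes of the TGF-beta family and all 15 core gonad factors were marked in both, among them Nr5a1 (2838 and 2869 bp) and Gata4 (2965 and 3292 bp), which both lineages need. In the TGF-beta family Amh was alone in having at least 1000 bp more in Sertoli cells, and Bmp5 (1264 and 2533 bp) and Bmpr1b (1756 and 2803 bp) had as much more in pregranulosa cells. All 12 housekeeping genes were marked in both, with a median difference of 0 bp.

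Of 6 fetal Leydig markers, Cyp17a1 and Lhcgr were marked in pregranulosa cells alone, Insl3, a Leydig hormone, had 193 bp in Sertoli and 2945 bp in pregranulosa cells, and Star and Hsd3b1 were marked in both. Interstitial and mesonephric markers were marked in both at 9 of 10 windows, against 64.5% of all promoters, with a median difference of -20 bp. Among 18 factors of other lineages, 3 (16.7%, 3.58 to 41.4) were marked in pregranulosa cells alone and 0 in Sertoli cells alone, against 2.57% and 1.06% of all promoters. These were Myod1 (1001 bp) and Pax7 (2941 bp), of muscle, and Pdx1 (1652 bp), of the pancreas, and all 3 windows were covered by 4001 bp of H3K27me3 in both cell types.

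Promoters marked in 1 cell type were CpG-poor. Within 500 bases of the TSS, the median ratio of observed to expected CpG was 0.24 for promoters marked in Sertoli cells alone, 0.275 for those marked in pregranulosa cells alone, 0.721 for those marked in both and 0.17 for those marked in neither. A ratio below 0.4 was found at 88.6% (83.7 to 92.4), 74.4% (70.6 to 78), 11% and 92.8% of them. The promoters printed above followed this, with 0.173 at Cst9, 0.205 at Hsd17b3, 0.274 at Cp, 0.246 at Wfdc6a and 0.0939 at Cyp4f15. Ptgds stood at 0.125 and Amh at 0.144, whereas Sox9 stood at 0.804, Wnt4 at 0.859 and Foxl2 at 0.921.

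Most Sertoli promoters of this kind had no mark at E10.5. Of the 228 promoters marked in Sertoli cells alone, 148 (64.9%) were unmarked in both progenitor populations, 42 (18.4%) were marked in XX progenitors, 13 (5.7%) in XY progenitors and 25 (11%) in both. Of the 551 marked in pregranulosa cells alone, 210 (38.1%) were unmarked at E10.5 and 190 (34.5%) were marked in both progenitor populations, with 134 (24.3%) marked in XX and 17 (3.09%) in XY progenitors alone. Promoters marked in both cell types at E13.5 had been marked in both progenitor populations in 96.9% of cases. H3K27me3 reached 49.5% (45.3 to 53.8) of the promoters marked in pregranulosa cells alone in Sertoli cells and 41.6% (37.4 to 45.8) in pregranulosa cells. For promoters marked in Sertoli cells alone these shares were 22.4% (17.1 to 28.3) and 19.7% (14.8 to 25.5), and for those marked in both 29.4% and 28.7%. The H3K27me3 regions covered 155.9 Mb in Sertoli and 129.8 Mb in pregranulosa cells, the latter of unknown depth. The part of list size and depth in these shares was not tested.

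Most regions of 1 cell type away from start sites were absent from the E10.5 lists. Of the Sertoli-only regions elsewhere, 81.1% overlapped no region of either E10.5 list, as did 64.6% of the pregranulosa-only regions and 26.4% of the shared regions. At TSS these shares were 74.3%, 47.3% and 2.14%. The XY progenitor list was the shallowest, and depth bears on what an absence at E10.5 means.

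Sertoli-only and pregranulosa-only regions elsewhere each lay nearest to genes of their own cell type more often than the other set did. Most regions of both sets lay nearest to a gene on neither list, at 6506 of 8536 Sertoli-only and 10707 of 13733 pregranulosa-only regions. The nearest protein-coding gene was Sertoli-specific for 16.6% (15.8 to 17.4) of Sertoli-only, 11.6% (11.1 to 12.1) of shared and 7.95% (7.5 to 8.42) of pregranulosa-only regions. It was pregranulosa-specific for 7.17% (6.63 to 7.74), 9.82% (9.34 to 10.3) and 14.1% in the same order, or 1935 of 13733 pregranulosa-only regions. Sertoli-specific genes were 6.2% and pregranulosa-specific genes 5.01% of all protein-coding genes. Neighbouring regions share a nearest gene and are not independent, so the intervals are too narrow. Outside gene bodies the nearest gene was Sertoli-specific for 503 of 3722 Sertoli-only and 551 of 6951 pregranulosa-only regions (7.93% of the latter), and pregranulosa-specific for 7.2% and 12.6%. Among regions within 50 kb of the nearest start the Sertoli-specific shares were 17.7% and 7.05% and the pregranulosa-specific shares 5.18% and 13%. Sertoli-only regions elsewhere lay at a median of 36.9 kb from that start and pregranulosa-only regions at 48.1 kb, with 52% and 45.8% in introns.

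**Figure D4:**
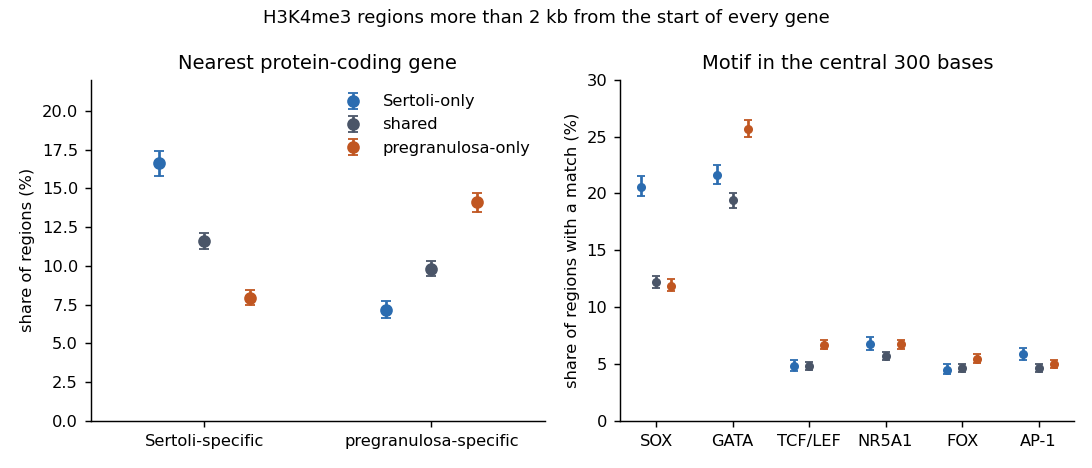
H3K4me3 regions more than 2 kb from the start of every gene (1 start per gene), as Sertoli-only (blue), shared (dark grey) and pregranulosa-only (orange). Left, share in percent whose nearest protein-coding gene was Sertoli-specific or pregranulosa-specific, and right, share whose central 300 bases held each of 6 motifs, with exact 95% binomial intervals. The SOX letters stand at 20.6% of Sertoli-only regions against 12.2% and 11.9% of the other classes.

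The nearest genes of the widest regions elsewhere are given as a description, since 10 regions per class are few. Of the 10 widest Sertoli-only regions, 6 lay nearest to a Sertoli-specific gene and 0 to a pregranulosa-specific gene, and 7 overlapped no region at E10.5. Over all Sertoli-only regions elsewhere these shares were 16.6%, 7.17% and 81.1%. The 10 widest lay nearest to Ptplb (7019 bp), Foxn1 (5804 bp), Slc38a1 (5009 bp), Padi2 (4954 bp), Grb14 (4804 bp), Prdm14 (4605 bp), Rasgef1c (4435 bp), Sox9 (4119 bp), Fat1 (4118 bp) and Slc28a3 (4083 bp). The Sox9 region, at chr11:112569474-112573592, had its centre 72 kb upstream of the Sox9 start and was absent from pregranulosa cells and from both progenitor lists. Its central bases, printed above, held none of the 6 motifs. The region near Ptplb, at chr16:34992374-34999392, held 1 SOX match in its centre.

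Of the 10 widest pregranulosa-only regions elsewhere, 3 lay nearest to a pregranulosa-specific gene and 0 to a Sertoli-specific gene, and 5 overlapped no region at E10.5. Over all pregranulosa-only regions elsewhere these shares were 14.1%, 7.95% and 64.6%. The 10 widest lay nearest to Ces1h (7912 bp), Cgnl1 (7348 bp), Nr2e3 (6290 bp), Lzts1 (5976 bp), Fam86 (5839 bp), Wt1 (5801 bp), Kitl (5779 bp), Tns3 (5703 bp), Zfp703 (5338 bp) and 1700092K14Rik (5272 bp). The Kitl region, at chr10:99487176-99492954, had its centre 11.8 kb downstream of the start of the gene for the ligand of the KIT receptor and was absent at E10.5. The Wt1 region, at chr2:104977974-104983774, had its centre 14.2 kb downstream of the start of the gene of a factor that both lineages need, and 2623 bp of it had been marked in XX and 1001 bp in XY progenitors. The region near Cgnl1, at chr9:71738422-71745769, held 1 GATA and 1 TCF/LEF match in its centre.

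At TSS the 10 widest Sertoli-only regions lay nearest to Cst9 (5236 bp), Cmas (4472 bp), Col9a3 (4014 bp), Gngt2 (3771 bp), Ptgds (3648 bp), Ahsg (3533 bp), Ptafr (3228 bp), Hsd17b3 (3135 bp), Hrct1 (3043 bp) and Casq2 (3000 bp), and 5 of these genes were Sertoli-specific. The widest pregranulosa-only regions lay nearest to Isx (8456 bp), Cga (4543 bp), Pkig (3895 bp), Doc2b (3849 bp), Cyp4f15 (3804 bp), Kcnh6 (3711 bp), Pax7 (3225 bp), Ptpn4 (3195 bp), Lrrc4 (3137 bp) and Crygb (3114 bp), of which 4 were pregranulosa-specific. Over all Sertoli-only regions at TSS the nearest gene was Sertoli-specific for 12.6%. Over all pregranulosa-only regions at TSS it was pregranulosa-specific for 7.77%. The regions near Hrct1, Cga, Pkig, Doc2b and Ptpn4 reached the start of another gene model and not that of the gene given.

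The regions of 1 cell type were also counted around the marker genes. Within 100 kb of the starts of the 18 Sertoli markers lay 45 Sertoli-only, 50 shared and 35 pregranulosa-only regions, and around the 16 pregranulosa markers 9, 38 and 57. These counts took regions elsewhere, which in all were 8536 Sertoli-only, 14580 shared and 13733 pregranulosa-only. That the Sertoli-only number was the higher around Sertoli markers rested on a pair of genes. Without Dhh and Mro the Sertoli marker total was 28 Sertoli-only and 28 pregranulosa-only regions. These numbers were even, whereas regions elsewhere in all were less often Sertoli-only than pregranulosa-only. Of the 18 markers, 8 had more Sertoli-only regions, 5 had more pregranulosa-only regions and 5 had equal numbers. Without Nkd1 and Lef1 the pregranulosa total was 9 Sertoli-only and 39 pregranulosa-only regions, and of the 16 markers 12 had more pregranulosa-only regions, 1 had more Sertoli-only regions and 3 had equal numbers. These omissions were chosen after the counts were seen. Dhh had 9 Sertoli-only and 3 pregranulosa-only regions, Sox8 5 and 3, and Hsd17b3, Cst9 and Gdnf 3, 3 and 2 against 0, 1 and 0. Nkd1, a feedback inhibitor of Wnt signaling, had 0 Sertoli-only and 10 pregranulosa-only regions, Lef1 0 and 8, Bmp2 0 and 6, and Sp5, a Wnt target, 0 and 4. The 5 Sertoli markers with more pregranulosa-only regions were Sox10 (2 and 5), Cyp26b1 (0 and 4), Dmrt1 (1 and 3), Hsd17b1 (1 and 2) and Fgf9 (0 and 1), and Sox9 itself had 2 and 2. In the XX cells, tags from the mutated enhancer copy of the reporter cannot be told apart from those of the Sox9 enhancer itself. The Sox9-CFP reporter of the Sertoli cells may add tags near Sox9 in the same way. Its part in the Sertoli regions there was not tested.

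**Figure D5:**
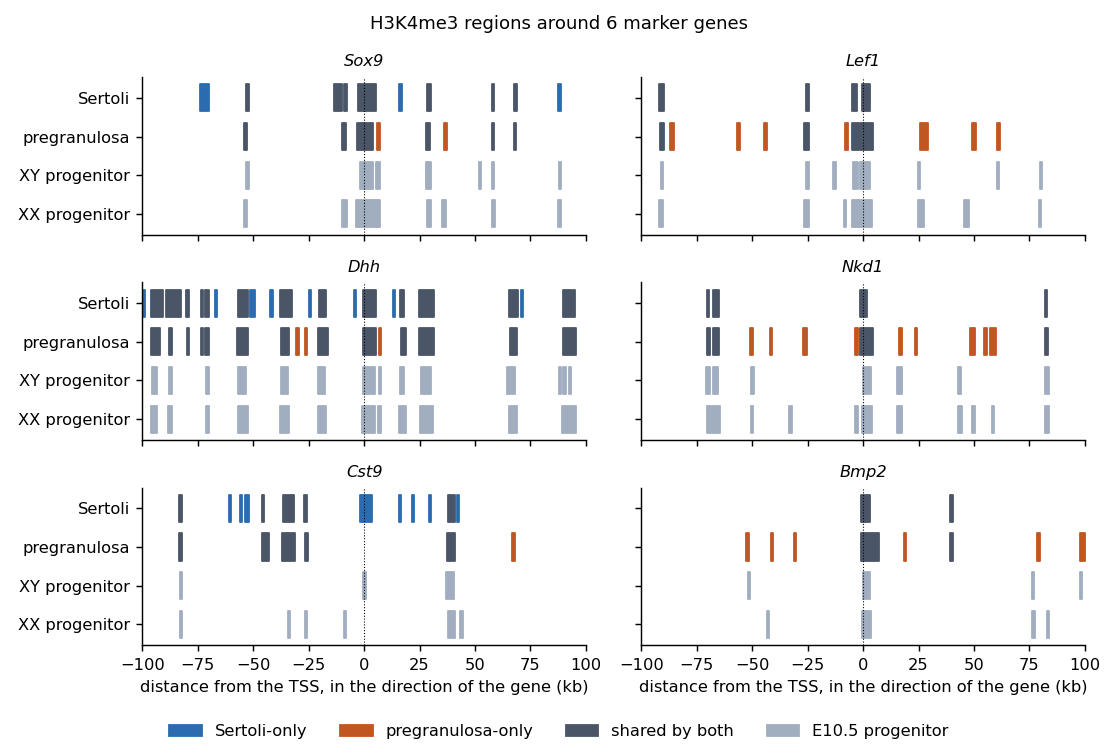
H3K4me3 regions within 100 kb of the start of 3 Sertoli markers (left) and 3 pregranulosa markers (right), by distance in kb along the gene's direction, in Sertoli cells, pregranulosa cells and the E10.5 progenitors. Blue marks Sertoli-only, orange pregranulosa-only, dark grey shared and light grey progenitor regions, and the dotted line the start. Nkd1 has 10 and Lef1 8 orange regions away from start sites and no blue ones.

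By nearest gene, Magi1, a pregranulosa-specific scaffold protein gene, had 26 pregranulosa-only and 1 Sertoli-only regions elsewhere, Bnc2 16 and 2, Zfp36l1 16 and 1, and Irx3 13 and 2. Most genes ranked highest by pregranulosa-only regions were on neither list. Among those, Tbx3, a T-box factor gene, had 17 and 1, Arid1b 17 and 2, Zfp516 16 and 5 and Cited2 15 and 1. Agpat4 and Eps8, both Sertoli-specific, had 11 and 8 Sertoli-only and 0 pregranulosa-only regions, and Atg7, an autophagy gene on neither list, 13 and 4. Tns3, which is pregranulosa-specific, had 12 Sertoli-only and 12 pregranulosa-only regions. Sox9 had 11 Sertoli-only and 12 pregranulosa-only regions nearest to it, so its surroundings held regions of both kinds.

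Sequence differed between the sets as well. In the central 300 bases of regions elsewhere, the SOX letters ACAATG, on either strand, were found in 20.6% of Sertoli-only, 12.2% of shared and 11.9% of pregranulosa-only regions, and in 14% of all. At TSS the shares were 18.9% (15.9 to 22.2), 6.81% (6.39 to 7.24) and 9.96% (8.25 to 11.9). The ratio of the Sertoli-only to the pregranulosa-only share elsewhere was 1.73 (1.63 to 1.84, log-scale interval). The same letters in reverse order, GTAACA, which keep the base composition, stood at 12%, 8.43% and 9.76%. This control thus also leaned toward Sertoli-only regions, though by less than the SOX letters. The part of base composition in the SOX difference was not tested. Median GC content was 46.7%, 50% and 47.3%.

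Within the Sertoli-only regions elsewhere the SOX share was higher in wider regions and in regions absent at E10.5. It was 22.4% (20.9 to 24) in those wider than 1001 bp and 19.7% (18.7 to 20.8) in the rest, 21.7% (20.7 to 22.7) in those absent at E10.5 and 16% (14.2 to 17.9) in those present. It was 22.6% nearest to Sertoli-specific, 21.1% nearest to pregranulosa-specific and 20.2% nearest to other genes. In pregranulosa-only regions it was 12.9% in those absent at E10.5 and 10% in those present, and 11.7% in those wider than 1001 bp. The region printed near Sel1l3 is an example with 2 matches.

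The GATA letters AGATAA leaned the other way, with 21.6% of Sertoli-only, 19.4% of shared and 25.7% of pregranulosa-only regions elsewhere, 22.3% of all and a ratio of 0.842 (0.801 to 0.884). The TCF/LEF letters ATCAAAG, which LEF1 and its relatives bind, were found in 4.85%, 4.84% and 6.69%, 5.53% of all, with a ratio of 0.725 (0.647 to 0.811). In reverse order the GATA letters stood at 14%, 10.9% and 12.4% and the TCF/LEF letters at 3.64%, 3.18% and 3.38%, so neither control leaned toward pregranulosa-only regions. At TSS neither motif leaned, with GATA in 18.6% of Sertoli-only and 19% of pregranulosa-only regions and TCF/LEF in 4.36% and 4.48%. NR5A1 stood at 6.78% and 6.72% of Sertoli-only and pregranulosa-only regions and 6.33% of all, FOX at 4.52% (4.09 to 4.98) and 5.46% (5.09 to 5.85) and 4.92% of all, and AP-1 at 5.87% and 5% and 5.07% of all. In reverse order the NR5A1 letters stood at 1.02% in both sets and the FOX letters at 6.35% and 5.56%. The region printed near Pld5 held 2 TCF/LEF matches and 1 GATA match.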

How the data were processed

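ChIP-seq of H3K4me3, with total H3 as control, was carried out by the authors on sorted cells in 2 replicates per population. Per the study's methods and the file headers, reads were aligned to mm9 with Bowtie and peaks were called with HOMER in histone style (peak size 1000, fold of 4 over control and over the local region, Poisson p of 0.0001). Trim Galore, for trimming, and SAMtools are also among the tools recorded for these data, but the study's methods do not mention them. The methods describe calling in each replicate, whereas the series description says that the deposited lists were made from both. Tool versions are not given in the sources used here. The progenitor headers name joined replicates, the Sertoli header does not, and the pregranulosa list has no header, so its depth and thresholds are not given. The values used are the peak positions deposited by the authors. Their deposited score is 1 for every peak and was not used.

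Overlapping peaks of a list were joined, regions on chromosomes 1 to 19 were kept, and a region overlapping the other list by 1 bp was shared. Gene starts came from GENCODE M1 on mm9, with 1 start per gene, and windows of 2 kb to each side (4001 bp) for 21418 protein-coding genes. The first start of a gene can be a minor one. Sertoli-specific and pregranulosa-specific genes came from the study's expression lists, and 13 shorter gene lists were written by hand. The members and lists were chosen with earlier results of these data known. Named genes were the listed genes marked in 1 cell type, 7 sex-determining genes, the 12 genes of each sex-specific list with most bases in their own cell type alone and up to 6 of the opposite pattern, the 8 largest differences in each direction among genes marked in both, and the genes nearest to the 10 widest regions of each class. Other named members of a list, and the genes with most regions nearest to them, were chosen after their values were seen. Some genes that the rule names are not reported here. Python 3.11.15, NumPy 2.4.6, SciPy 1.17.1, pysam 0.24.0, samtools 1.23.1 and matplotlib 3.10.9 were used. The joining and overlap steps were checked on simulated intervals and with bedtools 2.31.1. Alternatives were a window of 1 kb, every transcript start, an overlap of 500 bp, joining within 1 kb, equal numbers of regions, the widest 75% of each list and a distance of 5 kb from the other list. Peaks on the sex chromosomes were left out other than in the check of the labels.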

Additional observations from a re-analysis of the deposited data

How the results depend on the processing

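No paired analysis was possible because each list joins both replicates, and for the same reason no replicate could be left out. Of 65 pairs of a result (11) and a planned setting (7), 56 stayed within 1.5 times the reported count and 9 did not. With the widest 75% of each list, 5289 Sertoli-only, 9395 shared and 9027 pregranulosa-only regions lay elsewhere, and 41 pregranulosa-specific genes were marked in pregranulosa cells alone. With TSS within 1 kb, 373 Sertoli-only regions lay at TSS. With every transcript start, 1156 Sertoli-only and 1740 pregranulosa-only regions lay at TSS. Requiring that no region of the other list lay within 5 kb left 350 and 728 at TSS. These settings change by construction how many regions can be counted. The number of Sertoli-only regions stayed below that of pregranulosa-only regions at TSS and elsewhere in all 7 planned settings. It did so by the least with equal numbers of regions (796 against 845 at TSS, 9956 against 10324 elsewhere). Only that setting made the number of regions in the lists equal, by cutting the pregranulosa list, and it did not match the bases covered. The others cannot tell this order apart from the number of regions. A further setting chosen after seeing the data, any transcript start of the gene, moved 0 of 5 promoter counts beyond 1.5 times. With it, 15 Sertoli-specific genes were marked in Sertoli cells alone, against 20 with 1 start per gene. For pregranulosa-specific genes marked in pregranulosa cells alone these counts were 23 and 26. Also chosen after seeing the data, the ratio of SOX shares was 1.81 in the central 200 and 1.56 in the central 500 bases. Without replicate lists, and with an unknown pregranulosa depth, the precision of every difference between the cell types is unknown, and a narrow region in 1 list may lie just under the threshold in the other.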
